A study of Mus musculus with 141 samples.

Results

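The complement genes C3, C4b, Cfb, Hc, Cfi, Cd55 and Cd59a were followed across the cell classes of a sorted lung population, to describe which class held the transcripts of which component. The members were 7 genes chosen by name, and 6 of them had a row among the 17136 rows of the count matrix. Cfi, the protease that inactivates C3b and C4b, had no row and was not analysed here. Each sample was 1 cell, read from a separate capture site on a single Fluidigm C1 chip, and all cells came from the lungs of 1 male mouse aged 4 months, so each class was 1 sample and no test between classes was possible. The mouse (strain label 129SV, genotype ACID;R26tdTomato) carried a Cre-IRES-DsRed cassette in exon 1 of the endogenous Aqp5 gene and a Cre-dependent tdTomato reporter at ROSA26. Cells were sorted as CD31- CD45- E-cadherin+ tdTomato+, without any treatment named in the labels. The reporter marks a cell that expressed Aqp5 at any earlier time, so marked cells need not be alveolar type 1 cells, although every cell bears that label.

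Complement is a cascade of plasma proteins that coats microbes and damaged cells and can open pores in their membranes. C4b belongs to the classical and lectin pathways, Cfb supplies the protease of the alternative pathway, and C3 is the protein on which all 3 pathways converge. Hc encodes C5, whose cleavage yields a strong inflammatory peptide and starts the pore-forming terminal complex. Host cells protect themselves with membrane proteins: Cd55 speeds the decay of the convertases that cleave C3 and C5, and Cd59a blocks the last step of pore assembly. The liver supplies most circulating complement, and the airway and alveolar epithelium are known local sources.

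The positions of the 6 members with a row follow. In GRCm38 coordinates of GENCODE vM21, C3 occupies chr17:57203970-57228136, C4b chr17:34728380-34743882 and Cfb chr17:34856374-34862518, all on the minus strand and all protein coding. Hc occupies chr2:34983331-35061438 on the minus strand and Cd59a chr2:104095801-104115354 on the plus strand. Cd55 occupies chr1:130439027-130462744 on the minus strand. Upstream sequences of C3 and Hc are shown because these members differed most between the alveolar and the other classes while being read in several cells. Each is the 250 bases that precede the RefSeq start (GRCm38.p6), printed 5′ to 3′ along the gene, with chr17:57228137-57228386 for C3 and chr2:35061413-35061662 for Hc. Capitals mark the motif matches found.
C3: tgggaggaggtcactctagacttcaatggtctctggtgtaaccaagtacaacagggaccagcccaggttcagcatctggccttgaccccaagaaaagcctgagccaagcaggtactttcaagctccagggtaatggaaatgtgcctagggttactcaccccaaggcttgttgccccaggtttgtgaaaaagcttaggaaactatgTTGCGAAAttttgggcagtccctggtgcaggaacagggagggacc
Hc: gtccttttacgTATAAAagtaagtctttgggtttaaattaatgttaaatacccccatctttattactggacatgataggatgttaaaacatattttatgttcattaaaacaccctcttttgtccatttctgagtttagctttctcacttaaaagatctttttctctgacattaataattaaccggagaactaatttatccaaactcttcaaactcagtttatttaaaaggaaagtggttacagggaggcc
In C3, the letters TTGCGAAA matched the C/EBP motif (searched as TTGCNNAA on both strands) at positions -45 to -38 from the start. The same motif occurred in 9.56% of the 32851 promoters of the table. In Hc, the capitals match the TATA box letters TATAAA at positions -239 to -234, letters held by 12.4% of the promoters. Promoters of 4 of the 7 members were matched. The Cd59a window held 1 match to the interferon-stimulated response element (2.98% of promoters), and the Cd55 window held none of the 5 motifs searched. The other motifs were NF-kB (0.356%) and NKX2-1 (CTCAAG, 13.3%). G and C made up 52% of the C3 window, 31.2% of the Hc window and 64% of the Cd55 window.

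Cells in which mitochondrial genes took less than 0.15 of the reads were kept, which left 92 cells and removed 49. Their depth ran from 142003 to 2170760 reads per cell (median 553963), with a median of 2947 genes detected. Levels are given in CPM, the summed reads of a gene in a class scaled to a common library total, with exact Poisson 95% intervals. Shares of cells carry exact 95% intervals by the method of Clopper and Pearson. No molecular identifiers were named and amplified reads are not independent molecules, so that all intervals cover counting error alone. Type 1 was the class of 45 cells with at least 5000 CPM of Ager, a membrane receptor abundant in alveolar type 1 cells. Type 2 was the class of 11 cells with at least 8000 CPM of Sftpc, the surfactant protein C gene. The remaining cells were divided at 50000 CPM of Scgb1a1, the main secretory product of club cells, into 12 Scgb1a1-high and 24 Scgb1a1-low cells. No cell passed both the Ager and the Sftpc cutoff. The cells just inside and outside the cutoffs stood at 9335 and 1402 CPM for Ager, at 25437 and 7774 CPM for Sftpc, and at 174821 and 41995 CPM for Scgb1a1.

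Marker lists were checked against these class names, and the last class held more than 1 kind of cell. A list was called high in a cell where at least 50% of its genes exceeded 100 CPM. The type 1 list was high in 45 of 45 type 1 cells, the type 2 list in 10 of 11 type 2 cells and the club list in 12 of 12 Scgb1a1-high cells. The club list was also high in 3 type 1, 1 type 2 and 3 Scgb1a1-low cells, and the type 1 list in 2 Scgb1a1-low cells. Among Scgb1a1-high cells, 1 was also high in the type 2 list and 1 in the ciliated list. Of the 24 Scgb1a1-low cells, 11 were high in the ciliated list and 5 in the basal list. A further 2 cells were high in the fibroblast or the mesothelial list, and 6 were high in none of these 4 lists. Median depth was 468718 reads in type 1, 413806 in type 2, 960567 in Scgb1a1-high and 595068 in Scgb1a1-low cells. Of the 10 macrophage markers only Ptprc and Csf1r had a row. The list summed to 348 CPM in type 1 cells, where 21 of 45 cells were high in it, and to 0.154, 0.534 and 3.16 CPM in the other classes. All of these reads were of Csf1r, and Ptprc, the gene of the CD45 antigen of the sort, had 0 reads in every class.

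Hc was held by the type 2 class, C3 by both Scgb1a1 classes, Cfb by 3 Scgb1a1-high cells and C4b by 1 cell. Cd55 was highest in Scgb1a1-high cells and in ciliated-list cells, and Cd59a reads lay in a few cells of every class. A member was called in a class when its CPM there was at least 4-fold above or below that of all other kept cells together, with a class without reads set at 3 counts. In type 1 cells, 0 of the 6 members were called higher and 4 were called lower, beside 17.4% and 20.9% of the 8975 genes with at least 10 CPM over the kept cells. In type 2 cells, Hc was called higher and 4 members lower, beside 5.58% and 47.4% of all genes. In Scgb1a1-high cells, Cfb was called higher and Hc and C4b lower, beside 4.47% and 45.3%. In Scgb1a1-low cells, C3 and C4b were called higher and Hc and Cfb lower, beside 16.6% and 20.2%. Every lower call of C4b or Cfb, including those in type 1 and type 2, came from a class with 0 reads set at 3 counts. C4b was read in 1 kept cell and Cfb in 3, so these lower calls are not traits of the classes. The median log2 ratio of the 6 members was -6.27 in type 1, where that of all genes was 0.04. It was -4.54 in type 2 (all genes -1.64), -0.08 in Scgb1a1-high cells (all genes -1.62) and 1.10 in Scgb1a1-low cells (all genes 0.19). The type 2 median was the midpoint of C4b (-6.10) and Cfb (-2.98), both upper bounds from 0 reads set at 3 counts. The type 1 median was the midpoint of Hc (-7.14) and such a bound for Cfb (-5.40). These 2 medians therefore depend on the 3 counts allowed and on class depth, and are not measured levels. Of the 6 members, 5 passed the 10 CPM minimum, and Cfb, at 3.23 CPM over the kept cells, did not.

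**Figure D1:**
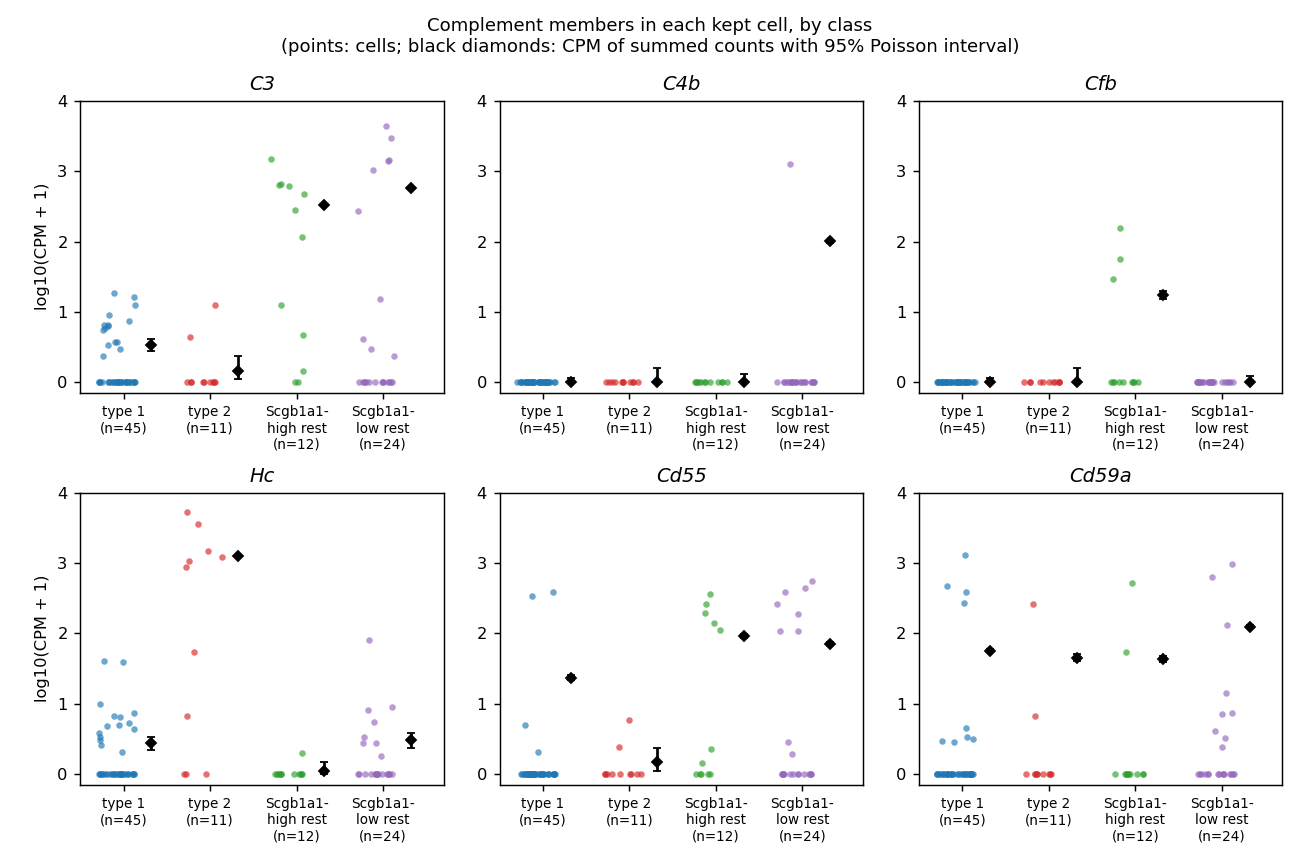
Level of each member in each of the 92 kept cells, as log10(CPM + 1), by class; points are cells and black diamonds are the CPM of the summed counts of the class with its 95% Poisson interval. C3 points above 100 CPM occur in 7 Scgb1a1-high and 6 Scgb1a1-low cells, while the 6 Hc points above 100 CPM are all type 2 cells.

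C3, the central component, was held outside the alveolar classes. Its level was 329 CPM (318 to 340) in Scgb1a1-high and 570 CPM (558 to 581) in Scgb1a1-low cells. It was 2.38 CPM (1.79 to 3.10) in type 1 cells, and type 2 cells gave 3 reads in all (0.463 CPM). Set against both alveolar classes together, both Scgb1a1 classes together stood at a log2 ratio of 7.91 (7.53 to 8.30). A level of at least 100 CPM was reached in 13 of these 36 cells and in none of the type 1 or type 2 cells.

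Within the Scgb1a1-high class, C3 ran from 0 to 1509 CPM with a median of 198 CPM. Reads were found in 10 of 12 cells (83.3%, 51.6 to 97.9%), and 7 cells passed 100 CPM, at 114.6, 281, 479, 620, 644, 651 and 1509 CPM. The class therefore held C3-high and C3-poor cells side by side.

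The Scgb1a1-low class was more divided. The 11 ciliated-list cells held 4 C3 reads together (0.625 CPM), and the highest of them stood at 14.1 CPM. Of the 5 basal-list cells, 2 carried 4351 and 1395 CPM and the other 3 at most 3.06 CPM. Among the 6 cells high in none of the ciliated, basal, fibroblast and mesothelial lists, 2 carried 1429 and 1026 CPM of C3. Each of these 2 expressed 42.9% of the basal list and 25% of the type 1 list above 100 CPM. Their shares of the club list were 33.3% and 44.4%, so the lists do not name their kind. The remaining high cells were those of the fibroblast and mesothelial lists, at 270 and 3004 CPM. The last of these, at column 8 and row 21 of the chip, held 42.2% of the C3 reads of the class, and without it the class stood at 358 CPM. Without both cells the level was 367 CPM and the log2 ratio to all other cells changed from 2.63 to 1.999, just below 4-fold. It was 1.96, at 179.5 CPM, when the mitochondrial maximum was set at 0.10. With TMM or DESeq2 scaling of the classes, the Scgb1a1-high class ranked first for C3. Genes of the dissociation stress response were also highest in this class, at a summed 8368 CPM against 1515 CPM in type 1, 3457 CPM in type 2 and 3000 CPM in Scgb1a1-high cells, and their part in the C3 level was not tested.

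Low C3 counts, of up to 11 reads in a type 1 cell, were also met in cells that lacked the high level. In type 1, 15 of 45 cells (33.3%, 20 to 49%) had a read, none above 17.4 CPM, and in type 2 2 of 11 cells did (18.2%, 2.28 to 51.8%). Thinned to 90000 reads per cell, the numbers with a read were 7 of 45, 1 of 11, 9 of 12 and 8 of 24 in the class order used above. Among kept cells below 100 CPM, C3 was read in 17 of 43 cells (39.5%, 25 to 55.6%) whose chip column held a deposited cell above 100 CPM. In the other columns it was read in 7 of 36 (19.4%, 8.19 to 36%). By chip row the corresponding shares were 21.7% and 33.9%. What part a shared column has in these low counts was not tested.

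Cfb, the protease subunit of the alternative C3 convertase, was read in 3 cells, all of them Scgb1a1-high. They held 146, 28 and 9 reads, or 154, 28.7 and 56.3 CPM. The other 9 cells of the class and all 80 kept cells of the other classes held no Cfb read. The class level of 16.3 CPM (14 to 18.8) was at least 247-fold higher than in the rest, with 3 counts allowed over the rest together. The cell with the most Cfb was also the one with the most C3 in its class (1509 CPM), the second had 479 CPM of C3, and the third had no C3 read. All 3 cells lay in chip columns 2, 3 and 9. The cell at column 3 and row 23 held 79.8% of the Cfb reads, and without it the class stood at 3.60 CPM. In GENCODE vM21 the readthrough gene Gm20547 shares 2246 of the 2825 exonic bases of Cfb (79.5%), and the annotation used by the authors was not given, so Cfb counts may be incomplete.

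C4b, the classical pathway component, was found in 1 cell only. All 1589 reads came from the Scgb1a1-low cell at column 8 and row 21, where they made 1257 CPM, and the other 91 kept cells had none. This cell expressed 4 of the 5 mesothelial markers above 100 CPM, with 2143 CPM of Msln, 2376 CPM of Upk3b, 655 CPM of Upk1b and 177 CPM of Wt1. It had 36 tdTomato reads and 2 reads of Cdh1, the E-cadherin gene of the sort, out of 1263791. Low counts of these 2 genes were not particular to it. Of the 92 kept cells, 79 had a Cdh1 read and 71 a tdTomato read. The Scgb1a1-high cell at column 14 and row 7 had 1 Cdh1 read out of 1457310. Over the whole mesothelial list the summed level was 1.38 CPM in type 1, 1.08 CPM in type 2 and 177 CPM in Scgb1a1-high cells, with 2, 3 and 3 of the 5 markers at 0. Cdh1 and tdTomato were looked up after the values of the cell at column 8 and row 21 were seen. The class call for C4b in Scgb1a1-low cells therefore described this cell and not the class. For 0 of 45 type 1 cells with a read, the exact upper limit of the share is 7.87%. C4a, whose transcript is 95.9% identical to that of C4b over 5378 aligned bases, had 208 reads in the same cell and none elsewhere, so the division of reads between these copies is uncertain. C2, the partner of C4b in the classical C3 convertase, had 173 reads, again all in this cell.

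Hc, which encodes C5, was the type 2 component. The level was 1255 CPM (1228 to 1283) in type 2 cells, 1.73 CPM in type 1 and 2.02 CPM in Scgb1a1-low cells, and Scgb1a1-high cells gave a single read (0.089 CPM). The log2 ratio of type 2 to all other cells was 9.75 (9.42 to 10.11). The 11 type 2 cells ran from 0 to 5220 CPM with a median of 863 CPM. The 6 highest cells stood at 863, 1058, 1227, 1476, 3572 and 5220 CPM, followed by cells at 52.8 and 5.75 CPM and 3 cells without a read. The highest value in any other class was 78.4 CPM. The kept type 2 cells left a gap between 52.8 and 863 CPM, but 5 of the 16 type 2 cells removed for their mitochondrial share lay within it, at 209 to 598 CPM.

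Low Hc counts were also met outside type 2. Hc was read in 15 of 45 type 1 cells (33.3%, 20 to 49%) and in 8 of 24 Scgb1a1-low cells (33.3%, 15.6 to 55.3%). It was read in 1 of 12 Scgb1a1-high cells, the deepest class. Among kept cells outside type 2, 18 of 44 (40.9%, 26.3 to 56.8%) had a read where the chip column held a deposited cell above 100 CPM, and 6 of 37 (16.2%, 6.19 to 32%) where it did not. Their summed levels were 2.56 and 0.573 CPM. By row the shares were 33.3% and 27.8%. Transfer of reads within a column was not tested, and no expression of Hc outside type 2 is read from these counts.

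Cd55, the decay accelerator of the convertases, was also highest outside the alveolar classes, with a different division than C3. Its level was 90.3 CPM (84.8 to 96) in Scgb1a1-high and 70.6 CPM (66.5 to 74.8) in Scgb1a1-low cells, 22.4 CPM (20.6 to 24.4) in type 1 cells and 0.463 CPM in type 2 cells, where 3 reads were found. The ciliated-list cells accounted for nearly all of the Scgb1a1-low level, with 169 CPM (159 to 180). Among these 11 cells, 6 passed 100 CPM, at 105.6, 108.7, 258, 384, 443 and 557 CPM. The 5 basal-list cells, in which C3 stood at 818 CPM, held 1 Cd55 read. Of the 12 Scgb1a1-high cells, 5 passed 100 CPM, at 108.8, 141.2, 196, 258 and 364 CPM. The cell at 258 CPM was the 1 also high in the ciliated list, and that at 108.8 CPM the 1 also high in the type 2 list. In type 1, 2 of 45 cells passed, at 335 and 392 CPM, and these 2 cells held nearly all type 1 reads. The order of the Scgb1a1-high and Scgb1a1-low classes was not stable: without the top cell of the Scgb1a1-high class it stood at 60.7 CPM, below the other class, and in chip columns 11 to 20 its log2 ratio to all other cells was -0.70, against 1.32 over the whole chip. Cd55 has a close copy, Cd55b, identical over 91.6% of 1157 aligned bases, for which no row was present.

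Cd59a, the inhibitor of the terminal pore, followed no class. The levels were 55.8 CPM (52.8 to 58.9) in type 1, 44 CPM (39 to 49.4) in type 2, 42.3 CPM (38.6 to 46.3) in Scgb1a1-high and 123.4 CPM (117.95 to 129) in Scgb1a1-low cells, and none was 4-fold apart from the rest. The reads came from few cells. In type 1, 4 of 45 cells passed 100 CPM, at 268, 391, 475 and 1314 CPM. In type 2, 1 cell at 263 CPM held 99.6% of the reads, and in Scgb1a1-high cells 1 cell at 523 CPM held 88.8%. In Scgb1a1-low cells the high cells were the fibroblast-list cell (955 CPM), a basal-list cell (634 CPM) and the mesothelial-list cell (131.4 CPM). Without the fibroblast-list cell the class stood at 44.1 CPM, close to the other classes and below type 1. Without both the fibroblast-list and the mesothelial-list cell it stood at 35.7 CPM, and type 1 then ranked first. The ciliated-list cells stood at 1.41 CPM. Cd59b, a neighbouring copy, is 83.2% identical over 739 aligned bases.

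**Figure D2:**
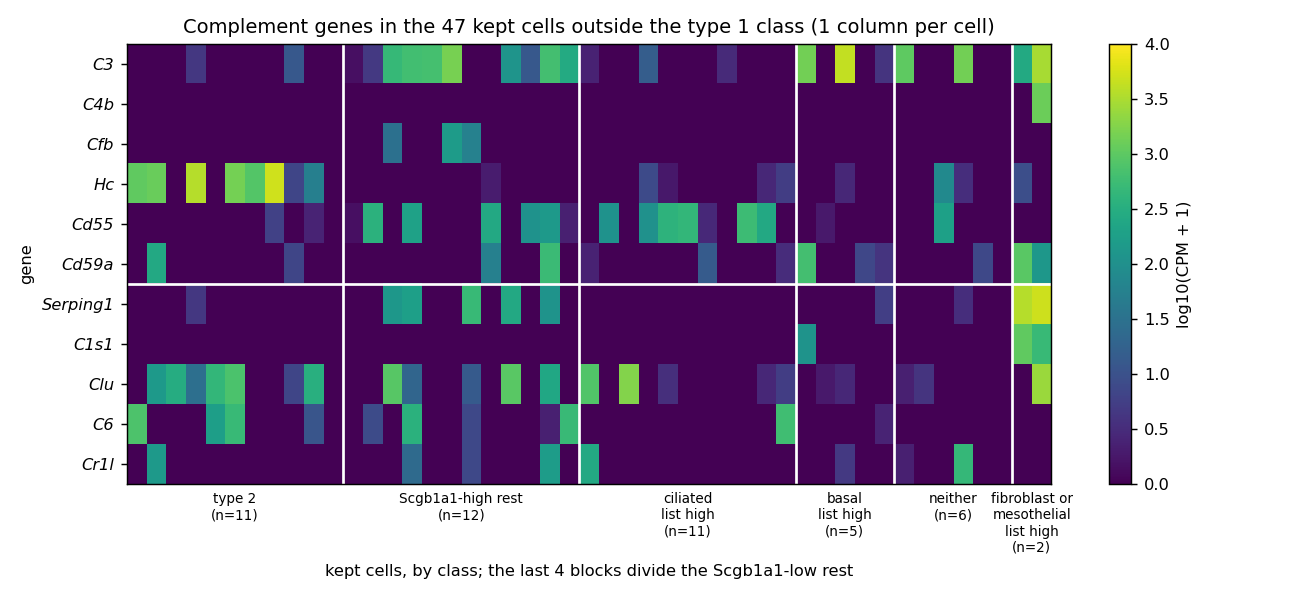
Heat map of log10(CPM + 1) of the 6 members (upper rows) and of 5 other complement genes (lower rows) in the 47 kept cells outside the type 1 class, 1 column per cell, in blocks by class. Hc is high in the type 2 block, where it reaches 5220 CPM, C3 in the Scgb1a1-high block and in single basal-list cells, Cd55 reaches 557 CPM in the ciliated-list block, and C4b is seen in 1 cell at the far right.

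Few cells held more than 1 member at a high level. At least 1 member passed 100 CPM in 6 of 45 type 1, 6 of 11 type 2, 10 of 12 Scgb1a1-high and 13 of 24 Scgb1a1-low cells. C3 and Hc, the successive substrates of the cascade, passed 100 CPM together in none of the 92 kept cells, of which 13 were C3 cells and 6 were Hc cells. With so few cells of each kind, a small or absent overlap is not informative, here and for the pairs below. A type 2 cell removed for its mitochondrial share of 0.182, at column 18 and row 33, carried 866 CPM of C3 and 1606 CPM of Hc. C3 and Cd55 (14 cells) passed together in 2 cells, both Scgb1a1-high. C3 and Cd59a (9 cells) passed together in 4 cells, 3 of them Scgb1a1-low. The Scgb1a1-high cell at column 16 and row 40 was the only cell with C3 (644 CPM), Cd55 (141.2 CPM) and Cd59a (523 CPM) above 100 CPM together.

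Of the wider complement list, 32 of 57 genes had a row and 28 a read. Leaving out the members, 26 genes had a row. Of these, 13 were called higher in Scgb1a1-low cells, 3 in type 1, 2 in type 2 and 0 in Scgb1a1-high cells. The shares of all genes with at least 10 CPM were 16.6%, 17.4%, 5.58% and 4.47%. No such minimum was set for the 26 genes, and without it the shares of all genes were 21.5%, 17.7%, 9.08% and 8.07%. Called lower were 14 in type 1, 13 in type 2, 14 in Scgb1a1-high and 2 in Scgb1a1-low cells. The shares of all genes with at least 10 CPM were 20.9%, 47.4%, 45.3% and 20.2%. Shares without the minimum were not computed for lower calls, so these counts have no matched share. C2 and C4a, each read in 1 kept cell, were called lower in every class without a read, which was set at 3 counts. The counts for Scgb1a1-low cells rested mostly on 2 cells. The mesothelial-list cell held more than 3 reads of 15 of the 32 genes and at least 50% of all kept reads of 7 of them. The fibroblast-list cell, at column 5 and row 5, held more than 3 reads of 10 genes and at least 50% of the reads of 3. It expressed Tcf21 at 1338 CPM and Pdgfra at 771 CPM, with 0 tdTomato and 2 Cdh1 reads among 1376350. Low counts of tdTomato and Cdh1 also occurred in other kept cells, as given above. The fibroblast list summed to 0.216 CPM in type 1 cells, and all 7 of its markers were at 0 in type 2 and Scgb1a1-high cells.

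Serping1, the inhibitor of the classical proteases, stood at 715 CPM in Scgb1a1-low cells, nearly all in the mesothelial-list cell (5028 CPM) and the fibroblast-list cell (3600 CPM). Among epithelial cells it was seen in the Scgb1a1-high class, at 76.4 CPM (71.4 to 81.7), where 5 of 12 cells passed 100 CPM. In type 1 and type 2 cells it stood at 0.605 and 0.154 CPM. Of the 3 Cfb cells, those at columns 9 and 2 carried 494 and 131.4 CPM of Serping1. The cell at column 3 and row 23, with most of the Cfb reads, had no Serping1 read. The classical proteases C1s1 and C1ra, at 136.5 and 59.4 CPM in Scgb1a1-low cells, had their top values in these same cells, at 1059 CPM of C1s1 in the fibroblast-list cell and 378 CPM of C1ra in the mesothelial-list cell. Outside them, the basal-list cell at column 2 and row 24 was the only cell above 100 CPM of either, with 114.2 CPM of C1s1 and 276 CPM of C1ra. This cell also carried 1395 CPM of C3 and 634 CPM of Cd59a.

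C6, a terminal component that joins C5b, stood at 206 CPM (195 to 218) in type 2 cells, 69.5 CPM (64.7 to 74.6) in Scgb1a1-high, 17.1 CPM in Scgb1a1-low and 0.173 CPM in type 1 cells. Without the top cell of each class, type 2 stood at 120.8 CPM and Scgb1a1-high cells at 34.9 CPM. In type 2, 3 of 11 cells passed 100 CPM, at 171, 493 and 752 CPM. The latter 2 were Hc-high cells, with 1476 and 1058 CPM of Hc. The cell at 171 CPM had no Hc read, and the other Hc-high cells had no C6 read. Outside type 2, C6 reached 518 CPM in an Scgb1a1-high cell and 597 CPM in a ciliated-list cell. Thus the type 2 class held the transcripts of 2 terminal components, of which C6 was not confined to it. The C3 level of the class was that of 3 reads. Clu, a secreted regulator of the terminal complex, was read in every class, at 106.5 CPM in type 1, 273 CPM in type 2, 222 CPM in Scgb1a1-high and 333 CPM in Scgb1a1-low cells. Without the top cell of each class, these levels were 76.3, 132.8, 113.1 and 147.5 CPM, so no order of the classes is read from them. Cpn1 and Cpn2, the subunits of the carboxypeptidase that trims complement peptides, were highest in ciliated-list cells, at 143 and 174 CPM. Most of their reads came from the cell at column 11 and row 10, with 597 CPM of Cpn1 and 880 CPM of Cpn2.

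Type 1 cells, the largest class, led for none of the members with all kept cells counted, yet carried the membrane regulator Cr1l. Cr1l encodes Crry, a rodent protein that acts on C3 and C4 fragments at the cell surface. It stood at 133.2 CPM (128.6 to 138.03) in type 1, against 24.5 CPM in type 2, 13.7 CPM in Scgb1a1-high and 24.1 CPM in Scgb1a1-low cells. The log2 ratio of type 1 to the other cells was 2.69 (2.57 to 2.81), and 2.67 and 2.58 with TMM and DESeq2 scaling of the classes. Reads were found in 26 of 45 type 1 cells (57.8%, 42.2 to 72.3%), 13 of them above 100 CPM. In the other classes 1 of 11, 3 of 12 and 4 of 24 cells had a read. The top type 1 cell, at 1351 CPM, held 30.5% of the reads of the class, which stood at 95.5 CPM without it. Csf1r of the macrophage list was also highest in type 1, at 348 CPM, while Ptprc was at 0, and the other 8 markers of that list had no row.

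**Figure D3:**
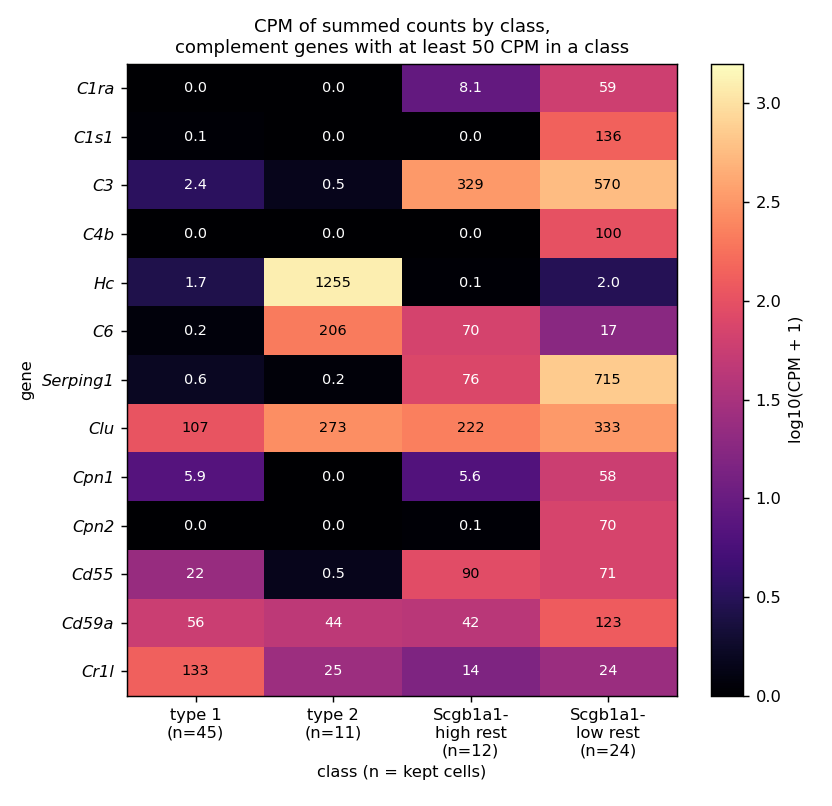
CPM of the summed counts of each class, printed in each field and coloured by log10(CPM + 1), for the complement genes shown, each with at least 50 CPM in at least 1 class. Hc stands at 1255 CPM in type 2 alone, C3 at 329 and 570 CPM in the Scgb1a1-high and Scgb1a1-low classes, and Cr1l at 133.2 CPM in type 1.

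**Figure D4:**
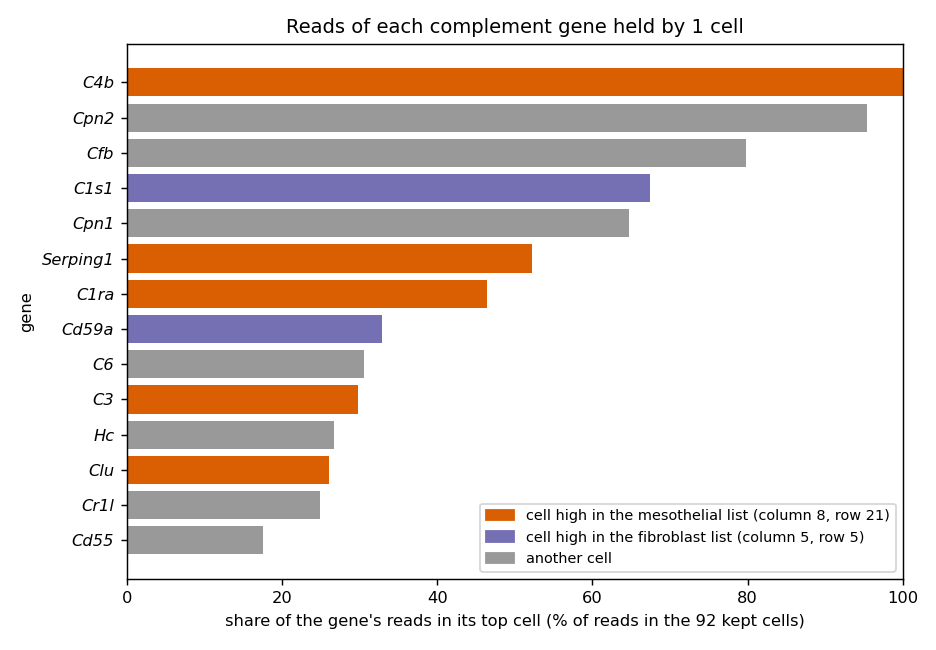
Share of the reads of each complement gene, over the 92 kept cells, that lay in the cell with most of them; bars start at 0 and colours mark the mesothelial-list and fibroblast-list cells. C4b lies wholly in the mesothelial-list cell and C1s1 is 67.5% in the fibroblast-list cell, while the top cell holds 26.7% of Hc and 17.5% of Cd55.

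The genes most like each member were sought by Spearman correlation across the 92 kept cells, among the 4925 genes with a read in at least 20 cells. The cells share 1 mouse, 1 chip and differ in depth, so these coefficients are descriptions. For C3 the first gene was Cp, the copper-carrying plasma protein ceruloplasmin (rho 0.56), followed by Ptprs (0.46) and Fmo2 (0.46). For Hc the closest were Sftpc (0.56), which defined the class, Etv5 (0.56) and Slc34a2 (0.49), both markers of the type 2 list. For Cd55 they were Calml4 (0.45), Celsr1 (0.44) and Rsph1 (0.43), the last 2 being genes of planar polarity and of the ciliary radial spoke. For Cd59a they were Gm15151 (0.54), Gm13827 (0.51) and Pfdn5 (0.50). Cfb, with reads in 3 cells, was closest to the secretory genes Muc5b (0.40) and Pigr (0.39) and to Gm2a (0.39). C4b, read in 1 cell, gave no coefficient above 0.25, with Me3 first, then Rras2 and Rab27b. Among the members themselves, no pair passed a rho of 0.20.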

How the data were processed

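Per the submitters' processing notes, the authors used Trim Galore and FastQC on the reads, HISAT2 for alignment to GRCm38, and featureCounts to assign reads to genes. Versions, annotation and strand setting are not given in the sources used here. The deposited values are raw read counts for 17136 genes, 91402 to 2170760 reads per cell. The study's own cell selection kept sites seen to hold single cells, and no doublet caller was run here. Cells with a mitochondrial share below 0.15, over 90000 reads and over 500 genes were kept. Class levels are summed counts scaled to CPM, with exact 95% Poisson intervals, computed in Python 3.11.15 (numpy 2.4.6, pandas 2.3.3, scipy 1.17.1). A call is a difference of at least 4-fold from the other kept cells as a whole. With 1 mouse, classes are single samples, so no p-value is given and no count model was fitted. TMM factors came from edgeR 4.0.16 and size factors from DESeq2 1.42.0, in R 4.3.3. Shares were repeated on counts thinned to 90000 reads (seed 20). Paralogs were aligned with blastn 2.17.0, and promoters came from RefSeq (GRCm38.p6). Scripts were tested on simulated data. There the 4-fold call found 133 of 200 genes set 10-fold higher in type 2 (66.5%). It also called 203 of 8775 unchanged genes.

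The genes named were the 7 members, the 3 genes that define the classes, the complement genes with at least 50 CPM in a class (1 of them is not reported here), and the 3 genes most like each member by Spearman correlation. Other genes named, namely C2, C4a, Cdh1, tdTomato and markers of the lists, were chosen after their values were seen. The members and lists were chosen with earlier results of these data known. Cells were classed by their own Ager, Sftpc and Scgb1a1 counts, since every cell bears 1 label, and those genes are no result. Alternatives for the mitochondrial maximum, depth, class cutoffs, scaling, thinning, chip columns and the top cell of each member were planned. Leaving out the 2 cells high in the fibroblast or mesothelial list was added after the data were seen.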

Additional observations from a re-analysis of the deposited data

Results flagged for a closer look

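The 49 cells above the mitochondrial maximum, which entered no comparison, held reads of 5 of the 6 members, and their levels over all 49 cells stand beside the limit of 3 counts (0.181 CPM). Hc stood at 179.5 CPM there. Of the 16 removed cells over the Sftpc cutoff, 14 had an Hc read and 9 passed 100 CPM, and their summed level was 665 CPM (641 to 690). C3 stood at 108.6 CPM over the removed cells, mostly from 1 Scgb1a1-low cell at 2516 CPM and 1 type 2 cell. The Scgb1a1-low cell expressed 71.4% of the fibroblast list above 100 CPM, with 0 tdTomato and 5 Cdh1 reads. The type 2 cell, at 866 CPM, also carried 1606 CPM of Hc. Removed type 2 cells thus had 90.5 CPM of C3, where kept type 2 cells had 0.463 CPM. Cd55 stood at 28.7 CPM, with 46.1 CPM in removed type 2 cells (kept 0.463 CPM), where 2 of 16 cells passed 100 CPM, and 3.39 CPM in removed Scgb1a1-low cells (kept 70.6 CPM). Cd59a stood at 16.4 CPM. C4b had 4 reads (0.242 CPM) in 2 cells, and Cfb had none. These values are given without an explanation.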

How the results depend on the processing

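The number of members called higher in type 1 (0) and in type 2 (1) stayed within 1.5 times its value under every alternative run. In Scgb1a1-low cells the count of 2 became 0 with a mitochondrial maximum of 0.10, 0 without the top cell of each member, 0 without the 2 cells high in the fibroblast or mesothelial list, and 1 in chip columns 11 to 20. In Scgb1a1-high cells the count of 1 became 2 with DESeq2 size factors (Cfb and Cd55), 2 in chip columns 1 to 10 and 0 in chip columns 11 to 20. The leading class was the reported one for 6 members, for 3 without the top cell of each and for 2 in chip columns 11 to 20. The log2 ratio of Cd55 reversed to -0.70 in chip columns 11 to 20. That of Cd59a reversed to -0.19 without its top cell, -4.67 in chip columns 11 to 20 and -0.49 without the 2 cells. The causes were not tested, except that Cfb and C4b had no reads in chip columns 11 to 20. Over the alternatives that gave a value, the log2 ratio to other cells of the leading class ran from 8.37 to 10.49 for Hc, 1.96 to 3.02 for C3, 3.51 to 8.71 for Cfb and 6.78 to 10.50 for C4b. For Cfb and C4b these are lower bounds wherever the other cells had no read and were set at 3 counts. TMM scaling moved every gene of Scgb1a1-high cells by 0.60 and of Scgb1a1-low cells by -0.45 on the log2 scale (DESeq2 0.76 and -0.53), which put C3 highest in Scgb1a1-high cells. Without its top cell, C4b had no value. No paired analysis was possible because all cells come from 1 mouse and form 1 labelled group. Depth limits members at a few reads per class, such as C3 and Cd55 in type 2, and a class of 11 or 12 cells cannot show a small share of positive cells.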
